A study of Mus musculus with 12 samples.

Results

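The genes described here are 40 mouse genes of glutathione, thioredoxin and NRF2 redox control, chosen by symbol and grouped by role. They were measured by RNA sequencing in 12 libraries of Bl/6J embryonic stem cells (ESCs), 3 in each of 4 groups. All 40 were matched to an identifier among the 55416 genes counted, and all 40 passed the filter on low counts, which kept 17940 genes for the test. They comprise 6 peroxiredoxins, 7 genes of the thioredoxin system, 4 glutaredoxins, 5 glutathione peroxidases, 6 genes of glutathione synthesis and reduction, 4 genes that remove superoxide or hydrogen peroxide, 3 heme and quinone enzymes, 3 genes of NRF2 control and 2 methionine sulfoxide reductases.

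The WT undifferentiated and C48S undifferentiated cells were grown with the MEK inhibitor PD03259010 (1 µM), the GSK3b inhibitor CHIR99021 (3 µM) and ascorbic acid. The WT RA and C48S RA cells were taken on day 2 of retinoic acid (RA, 1.5 mg/L) in medium without leukaemia inhibitory factor. C48S cells carry a form of the pluripotency factor Oct4, encoded by Pou5f1, in which a cysteine is replaced by a serine. They belong to a single clone, number 46, so effects of the Oct4 change and of other features of clone 46 cannot be told apart. The design text calls the compared cells parent and mutant, while the titles name the former only WT. Whether the inhibitors and ascorbic acid, itself an antioxidant, were present during RA is not stated, so RA and the change of medium cannot be told apart. For the RA libraries a treatment field lists days 2 to 7, a different day for each, whereas titles and protocol give day 2, which was used.

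Total counts lay between 8678088 and 13597098 per library. Levels are given as CPM (the count scaled to library size after TMM scaling), and levels of different genes are compared only as CPM per kilobase of exon. C48S undifferentiated replicate 3 stood apart from the other libraries of its group (chi-square per degree of freedom 9.66 and 9.88, against at most 2.26 for any other pair of a group). No label says whether a group's libraries are from separate cultures, and the p-values here reflect library-to-library spread that may be only technical. The 10 ESC markers summed to between 6114 and 6290 CPM in WT and between 6294 and 6462 CPM in C48S before RA, with a count for each marker. Those near-equal sums hide opposite differences: 4 of the 10 passed as higher in C48S and 4 as lower (27.5% and 28.1% of all genes tested). Klf4 was at 201 to 218 CPM in WT and 611 to 668 CPM in C48S, and Nanog at 1044 to 1085 and 856 to 861 CPM. Fibroblast and feeder markers, from a list of 16, also had counts in both lines, and summed to between 655 and 688 CPM in WT and between 821 and 976 CPM in C48S. Pou5f1 was at 579 to 589 CPM in WT and 505 to 653 CPM in C48S before RA, and at 22.04 to 24.1 and 65.1 to 71.5 CPM after it, and its level does not check the genotype labels, since a replaced residue leaves the transcript in place. Between the lines, genes of chromosome 6 had a median log2 difference of 0.58 before and 0.63 after RA, those of chromosome 8 of 0.52 and 0.58, and those of chromosome 11 of -0.53 and -0.48. The 7 redox genes on these chromosomes are Txnrd3 (6), Prdx2, Gsr, Nqo1 and Hmox1 (8), and Gpx3 and Sqstm1 (11), and for them the difference from their chromosome's median is given as well.

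Cells keep reactive oxygen species in check with a pair of thiol systems that both draw electrons from NADPH. In the first, thioredoxin reductases reduce thioredoxin, which reduces peroxiredoxins and methionine sulfoxide reductases. In the other, glutathione is built from glutamate, cysteine and glycine, is used by glutathione peroxidases and glutaredoxins, and is reduced again by glutathione reductase. The transcription factor NRF2, encoded by Nfe2l2, switches on many of these genes through antioxidant response elements (AREs), and KEAP1 holds it back by marking it for degradation. The mitochondria of pluripotent stem cells mature as the cells differentiate.

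Of the 40 genes, 7 encode selenoproteins, in which a UGA codon is read as selenocysteine, the reactive residue of these enzymes. The codons are shown because they set these 7 enzymes apart from the rest and because their place differs between the families. Each line gives the coding strand, 5′ to 3′, from GENCODE M21 transcripts, with the selenocysteine codon (TGA in DNA letters) in capitals and up to 15 bases on either side:
Gpx1: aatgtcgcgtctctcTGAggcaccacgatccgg
Gpx3: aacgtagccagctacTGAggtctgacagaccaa
Gpx4: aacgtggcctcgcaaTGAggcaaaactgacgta
Msrb1: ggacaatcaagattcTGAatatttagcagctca
Txnrd1: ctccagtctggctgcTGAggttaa
Txnrd2: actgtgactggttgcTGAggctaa
Txnrd3: actcagaaaggctgcTGAggctag
In the 3 thioredoxin reductases the codon is followed by 1 more codon and the stop, so the selenocysteine lies at the end of the protein. In Gpx1, Gpx3 and Gpx4 it is codon 47, 73 and 129 of 201, 226 and 253, and in Msrb1 codon 95 of 116. These numbers are for the transcript with the longest coding sequence of each gene and can differ in its other transcripts. The codon that follows is ggc or ggt, both read as glycine, in all of these but Msrb1.

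The promoters were searched on both strands for the core of the ARE, TGACNNNGC. It was found in 7 of the 34 members with an entry in the RefSeq promoter table (250 bases before to 50 after the start, GRCm38.p6), which is 20.6%, against 14% of the 27025 genes in that table. Counted by promoter, since a gene can have several, it was in 7 of 45 (15.6%), against 12.4% of all 32851. The 6 members without an entry are Msra, Gclc, Hmox1, Prdx6, Gsr and Sod3. The windows are shown because these members responded differently from each other to the line and to RA. They are printed on the strand of the gene, with the core in capitals and up to 20 bases on either side:
Prdx1: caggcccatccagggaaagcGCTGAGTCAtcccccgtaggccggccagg
Gclm: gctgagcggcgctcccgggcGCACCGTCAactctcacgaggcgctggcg
Txnrd1: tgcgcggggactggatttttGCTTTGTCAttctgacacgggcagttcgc
Nfe2l2: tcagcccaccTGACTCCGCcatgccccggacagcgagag
Sod1: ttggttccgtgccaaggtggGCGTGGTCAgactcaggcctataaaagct
G6pdx: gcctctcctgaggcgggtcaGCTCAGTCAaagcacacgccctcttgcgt
They lie at chr4:116685446-116685494 (plus strand) for Prdx1, chr3:122245403-122245451 (plus) for Gclm, chr10:82859094-82859142 (plus) for Txnrd1, chr2:75704875-75704913 (minus) for Nfe2l2, chr16:90220686-90220734 (plus) for Sod1 and chrX:74428909-74428957 (minus) for G6pdx. The match in Srxn1 lies 28 bases after the start. In Nfe2l2 the core reads on the strand of the gene, and in the other 6 on the opposite strand. A match is a description of the letters, not a measured site.

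Before RA the lines differed in both directions among the redox genes. C48S cells had more Txnip, Prdx2 and Hmox1 transcript, each more than 2-fold, and less Glrx and Prdx6, likewise more than 2-fold. These are 3 genes higher and 2 lower by at least 2-fold, against 8.01% and 9.97% of all genes tested. By edgeR's quasi-likelihood test with Benjamini-Hochberg adjustment over all genes tested, 28 of 40 differed, against 55.6% of all genes tested: 12 were higher in C48S and 16 lower, against 27.5% and 28.1%. The median log2 difference of the 40 was -0.10, beside 0.0014 over all genes. The number higher in C48S was close to that background, and the number lower was above it, which is given without a test. Every C48S library lay above every WT library for 15 of them and below for 17, against 28.7% and 29.6% of all genes. Without C48S undifferentiated replicate 3, 14 were higher and 18 lower, since Srxn1 and Gclc then passed as higher and Prdx4 and Hmox2 as lower. Of all 18539 genes tested in that fit, 5050 were higher and 5171 lower. Tested against the median of their chromosome on 6, 8 and 11, 11 were higher and 16 lower (25.1% and 27.0% of all genes). Against a null fold of 1.5, 4 were higher and 4 lower (9.33% and 10.8%). With library totals in place of TMM 17 were higher and 13 lower, against 5744 and 4404 of all 17940 genes tested.

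After RA the genes that differed between the lines were partly others. Srxn1, Gsr, Hmox1 and Nqo1 were more than 2-fold higher in C48S and Gpx3 was more than 2-fold lower, against 6.18% and 8.18% of all genes tested by that measure. In all 22 of 40 differed (54.5% of all genes), 13 higher and 9 lower, against 28.8% and 25.7%, with a median of 0.026 beside 0.023 over all genes. The groups did not overlap for 26, with C48S above WT for 14 (32.9% of all genes) and below for 12 (29.6%). DESeq2 with its own size factors called 10 higher and 11 lower, against 4257 and 4664 of all 17940 genes tested. Tested against their chromosome, 13 were higher and 9 lower (25.7% and 24.6% of all genes), and against a null fold of 1.5, 4 were higher and 1 lower (7.92% and 8.54%). Across the states 7 genes were higher in C48S in both (Gsr, Hmox1, Nqo1, Prdx1, Prdx2, Sod2 and Txnrd1) and 6 lower in both (Glrx3, Glrx5, Gpx3, Gss, Sod1 and Sqstm1). The call of Txnrd1 after RA (0.10 ± 0.043, adjusted p = 0.0464) was lost under 17 of 22 alternatives, among them RLE scaling, DESeq2, library totals and 10 of the 12 fits with a library left out. Those of Glrx5 and Sqstm1 after RA were lost without C48S RA replicate 1 and 3 respectively (adjusted p = 0.0608 and 0.0519). Of these 13, 6 lie on chromosomes 8 and 11 and differed in the direction of their chromosome. Gclm, Gpx1 and Gpx4 were lower in C48S before RA and higher after it, but several of these calls of Gclm and Gpx1 were lost under alternatives, as given with each gene below. A further 12 passed before RA alone, 6 after RA alone, and Cat, G6pdx, Glrx2, Prdx4, Txn1 and Txnrd2 in neither state. The shares of all genes with such calls across the states were not counted, so these joint counts only describe the 40 genes.

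**Figure D1:**
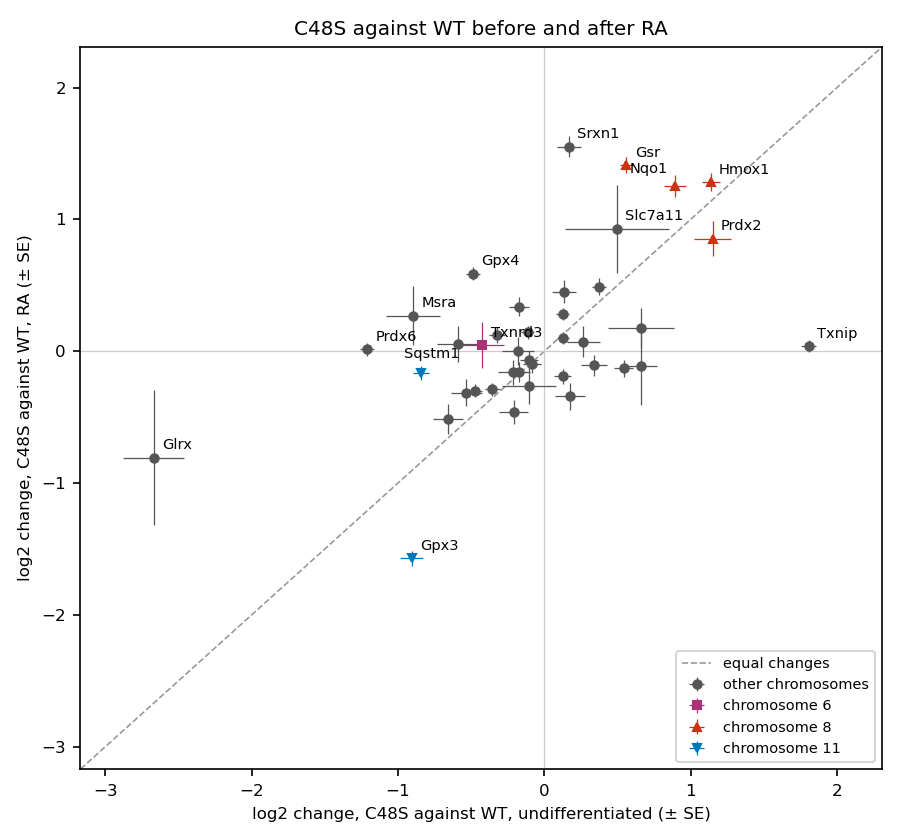
The log2 difference between C48S and WT of each of the 40 redox genes before RA (horizontal) and after RA (vertical), with bars for the standard error and symbols for chromosomes 6, 8 and 11. Points on the dashed line differ equally in both states; Txnip, Prdx6 and Glrx lie far from 0 before RA, and Srxn1 lies at 0.17 before and 1.55 after.

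With RA most redox genes fell in both lines. In WT 34 of 40 changed (78.3% of all genes tested): 27 fell and 7 rose, against 37.4% and 40.9%, and the median was -0.72 beside 0.055 over all genes. In C48S 33 changed (73.6%), of which 24 fell and 9 rose, against 34.6% and 39.0%, with a median of -0.46 beside 0.049. The groups did not overlap for 35 genes in WT, 28 below and 7 above (38.9% and 42.0% of all genes), and for 34 in C48S, 25 below and 9 above (34.5% and 39.3%). By at least 2-fold, 11 fell and 4 rose in WT (15.1% and 26.6% of all genes), and 6 fell and 2 rose in C48S (9.01% and 23.4%). Against a null fold of 1.5, 20 fell and 4 rose in WT (21.4% and 29.1%), and 16 fell and 5 rose in C48S (14.0% and 25.2%). In both lines 22 fell and 6 rose, the latter being Gpx3, Gpx8, Hmox2, Txnip, Txnrd1 and Txnrd2. The share of all genes called in both lines was not counted, so these joint counts only describe the 40 genes. Srxn1 and Sqstm1 fell in WT and rose in C48S.

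Library totals in place of TMM moved the median of all genes to 0.40 in WT and 0.28 in C48S. Among the redox genes 22 then fell and 12 rose in WT, against 4692 and 9442 of all 17940 genes tested. In C48S 20 fell and 12 rose, against 4408 and 8619 of all genes. The ESC markers fell at the same time, from the sums above to between 455 and 478 CPM in WT and to between 911 and 957 CPM in C48S, and all 10 passed in both lines. Beside this and the marker counts that follow, 40.9% of all genes tested rose and 37.4% fell in WT, and 39.0% rose and 34.6% fell in C48S. Trophoblast markers, from a list of 12, went from between 83.7 and 94.1 to between 603 and 621 CPM in WT, and from between 107.5 and 114 to between 366 and 404 CPM in C48S. Of the 11 tested, 7 rose and 3 fell in WT (median 1.46), and 9 rose and 1 fell in C48S (median 2.92). The medians thus order the lines the other way from the sums. Krt18 and Krt8 added most to the sums after RA, with 341 and 159 CPM in WT and 112 and 87.5 CPM in C48S. Fibroblast and feeder markers came to between 447 and 468 CPM in WT and between 620 and 634 CPM in C48S after RA, with 8 of 16 rising and 8 falling in WT, and 6 rising and 9 falling in C48S. Neural markers, from a list of 10, lay between 113 and 114 CPM in WT and between 85.4 and 110.5 CPM in C48S before RA, and between 111 and 115 and between 74.1 and 78.5 CPM after it. These sums hide opposite changes: 6 of the 7 tested neural markers rose in each line (medians of the 7 2.10 in WT and 1.57 in C48S), while Tubb3, the most abundant before RA, fell (-4.79 ± 0.15 and -3.23 ± 0.13). The part of these markers in the redox changes was not tested, and in these bulk libraries fewer cells of a type and less RNA per cell cannot be told apart.

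The RA change of the redox genes differed between the lines for 21 of 40, against 39.4% of all genes tested. It was higher in C48S, as the C48S change minus the WT change, for 15 and lower for 6, against 22.2% and 17.2%, and the median of the 40 was 0.15 beside 0.023. Prdx6, Srxn1, Gpx4, Msra and Glrx had the largest differences upward and Txnip the largest downward, and these 5 and 1 were the differences of at least 2-fold (8.02% and 6.05% of all genes). The absolute RA change was smaller in C48S than in WT for 29 of 40 (72.5%), and for 62.0% of all genes tested. Of the 10 ESC markers 9 also had a higher RA change in C48S, with a median of 1.44, and the part of that in the redox differences was not tested. Without C48S undifferentiated replicate 3, 19 were higher and 6 lower, with Txnrd3, Glrx5, Sod1 and Hmox1 added. Of all 18539 genes tested in that fit, 4367 were higher and 3404 lower. With library totals 10 were higher and 8 lower, against 3203 and 4039 of all 17940 genes tested. Against a null fold of 1.5 the counts were 4 and 1 (7.61% and 4.97% of all genes). With the chromosome offset they were again 15 and 6 (21.8% and 17.7%).

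**Figure D2:**
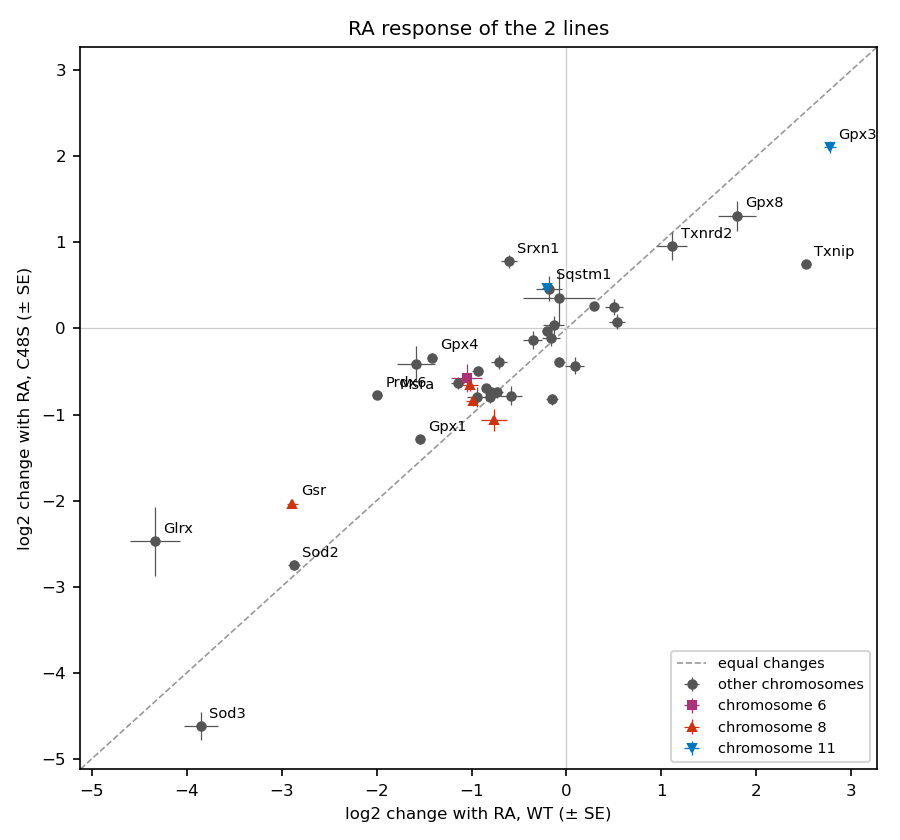
The log2 change with RA of each redox gene in WT (horizontal) and C48S (vertical), with standard errors and symbols for chromosomes 6, 8 and 11. Most points lie at the lower left, where both lines fell, and Srxn1 and Sqstm1 lie to the left of 0 in WT and above 0 in C48S.

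**Figure D3:**
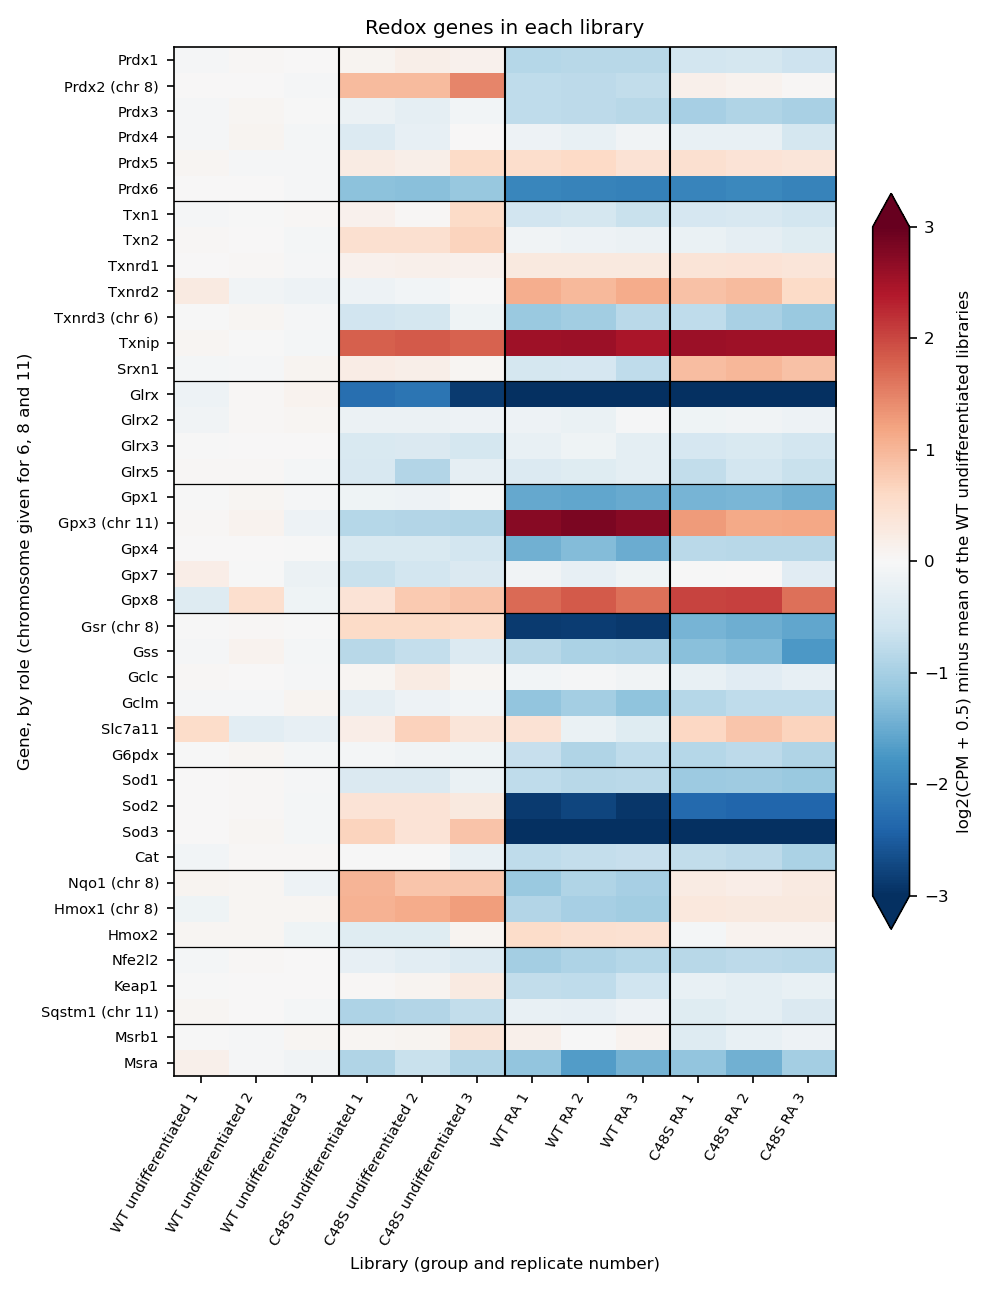
Each of the 40 genes (rows, by role) in each of the 12 libraries (columns, by group), as log2(CPM + 0.5) minus the mean of the WT undifferentiated libraries, with colours limited to 3 in either direction. Red is higher and blue lower than in WT undifferentiated cells; in the RA columns Gpx3, Gpx8 and Txnip are red and Glrx, Sod2, Sod3 and Gsr are blue.

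Peroxiredoxins remove hydrogen peroxide through a reactive cysteine. Prdx6 (ENSMUSG00000026701, chromosome 1, 161067682 to 161078789 on GRCm39, the build of all gene coordinates below), a 1-cysteine member that also acts on phospholipids, was at 514, 516 and 497 CPM in WT undifferentiated cells and at 215, 213 and 232 CPM in C48S. Its level after RA was 131, 127 and 124 CPM in WT, and 128, 132 and 126 CPM in C48S. The lines were apart before RA in every library and overlapped after it. Before RA the log2 difference was -1.21 ± 0.047 (adjusted p = 1.41e-21) and after RA 0.014 ± 0.050 (adjusted p = 0.841). With RA Prdx6 fell by 4.0-fold in WT and 1.71-fold in C48S, and these changes differed by 1.22 ± 0.069 (adjusted p = 1.46e-16).

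Prdx1, a cytosolic peroxiredoxin and a textbook NRF2 target, had the highest level per length of the 40 genes in all groups but WT RA, where Txnip was at 151 and Prdx1 at 149 CPM per kilobase. It had 794, 839 and 817 CPM in WT and 869, 917 and 888 CPM in C48S before RA, and 449, 457 and 455 and 556, 567 and 533 CPM after it. C48S lay above WT without overlap in both states, though by little: 0.13 ± 0.043 before (adjusted p = 0.0137) and 0.28 ± 0.044 after RA (adjusted p = 1.32e-06). It fell in WT (-0.85 ± 0.044) and in C48S (-0.69 ± 0.044). The call before RA was lost in a fit of the compared groups alone and without WT replicate 1 or C48S replicate 2 (adjusted p = 0.0728, 0.111 and 0.0634).

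Prdx2, another cytosolic member, lies on chromosome 8 (ENSMUSG00000005161, chromosome 8, 85696216 to 85701463). It was at 151, 150.3 and 145 CPM in WT before RA and at 289, 290.1 and 414 CPM in C48S, where replicate 3 was the highest. After RA the values were 88.1, 86.1 and 89.4 CPM in WT and 165, 159 and 152 CPM in C48S, again without overlap. The differences were 1.15 ± 0.13 before and 0.85 ± 0.13 after RA. Against the median of chromosome 8 they were 0.63 (adjusted p = 0.00225) and 0.28 (adjusted p = 0.120), so the latter did not pass. Of the other peroxiredoxins, mitochondrial Prdx3 fell with RA in WT (-0.81 ± 0.075) and C48S (-0.79 ± 0.075), Prdx4 of the endoplasmic reticulum passed in no comparison, and Prdx5 rose with RA in WT (0.53 ± 0.086) but was at 0.080 ± 0.084 in C48S. Prdx3 was lower in C48S before RA (-0.17 ± 0.072, adjusted p = 0.0416), a call that was lost under 14 of the alternatives, among them 9 of the 12 in which a library was left out.

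As shares of the family's summed CPM per kilobase, Prdx1 made up 53.9, 56.5, 55.8 and 57.2% in WT and C48S before RA and in WT and C48S after it. Prdx6 made up 21.3% in WT undifferentiated cells and 8.83, 9.92 and 8.44% in the other groups, and Prdx2 was at 9.81% in WT and 20.8% in C48S before RA and at 10.8 and 16.4% after it. The summed level was 498 ± 9.78 CPM per kilobase in WT and 519 ± 33.3 in C48S before RA, and 267 ± 1.22 and 317 ± 10.8 after it (SD, n = 3). An exact permutation test of 3 libraries against 3 cannot give less than p = 0.10. The share differences of Prdx6 reached that floor in each comparison of groups, as did those of Prdx2, Prdx4 and Prdx5. The test therefore does not set Prdx6 apart.

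In the thioredoxin system Txnip, which encodes an inhibitor that binds reduced thioredoxin and also limits glucose uptake, differed most (ENSMUSG00000038393, chromosome 3, 96465273 to 96469199). It was at 86.1, 81.3 and 79.2 CPM in WT undifferentiated cells and 287, 293 and 283 CPM in C48S, without overlap. After RA both lines had like levels, 479.7, 487 and 448 CPM in WT and 489, 482 and 481 CPM in C48S. The difference was 1.81 ± 0.051 before RA (adjusted p = 1.03e-25) and 0.038 ± 0.046 after it (adjusted p = 0.503). Txnip rose 5.74-fold with RA in WT and 1.68-fold in C48S, a difference of -1.77 ± 0.068 on the log2 scale (adjusted p = 4.09e-21).

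Srxn1, sulfiredoxin, which restores overoxidized peroxiredoxins, had the reverse order of states (ENSMUSG00000032802, chromosome 2, 151947436 to 151953296). Before RA it had 32.9, 33.4 and 36.01 CPM in WT, and 39.97, 38.9 and 35.8 CPM in C48S, which overlapped. After RA the WT libraries held 23.5, 23.8 and 19.8 CPM and the C48S libraries 65.5, 68.3 and 63.6 CPM, every C48S library well above every other library of the 4 groups. The difference after RA was 1.55 ± 0.081 (adjusted p = 7.08e-18), against 0.17 ± 0.082 before (adjusted p = 0.0837, which passed without C48S replicate 3). Srxn1 fell in WT (-0.60 ± 0.087) and rose in C48S (0.78 ± 0.076), and the changes differed by 1.39 ± 0.12 (adjusted p = 4.12e-12).

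Thioredoxin itself, Txn1, was at 173 to 179 CPM in WT and 181 to 261 CPM in C48S before RA, where replicate 3 held the highest value, and fell with RA in both lines (-0.58 ± 0.12 and -0.78 ± 0.11). Its mitochondrial counterpart Txn2 was higher in C48S before RA (0.54 ± 0.062, adjusted p = 2.92e-09) and did not pass after it (-0.13 ± 0.065). Txn2 fell in C48S with RA (-0.82 ± 0.062) and slightly in WT (-0.15 ± 0.064), where the sign turned with library totals (0.19) and the call was lost under 12 of 22 alternatives, 7 of them with a library left out.

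The thioredoxin reductases went different ways. Txnrd1, the cytosolic enzyme and by far the most abundant at 67.1 CPM per kilobase in WT undifferentiated cells, rose with RA in both lines (0.29 ± 0.043 and 0.26 ± 0.043). Txnrd2, the mitochondrial one, rose as well (1.11 ± 0.16 and 0.96 ± 0.16), from a low level of 1.16 CPM per kilobase. Txnrd3, a testis-enriched form on chromosome 6 (ENSMUSG00000000811, chromosome 6, 89620970 to 89652511), was at 10.6, 11 and 10.3 CPM in WT and 6.96, 7.25 and 9.72 CPM in C48S before RA, and at 4.66, 4.89 and 5.86 and 6.07, 5.14 and 4.68 CPM after it. C48S lay below WT before RA and overlapped with it after, and Txnrd3 fell in both lines (-1.05 ± 0.16 and -0.58 ± 0.16). The line difference was -0.42 ± 0.15 before and 0.048 ± 0.18 after RA. The former did not pass without WT undifferentiated replicate 2 or C48S undifferentiated replicate 1 or 2 (adjusted p = 0.0592, 0.115 and 0.0655). Since chromosome 6 was shifted upward, the difference against its median was -1.01 before (adjusted p = 7.14e-07) and -0.58 after RA (adjusted p = 0.00643), which turns the sign of the latter.

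**Figure D4:**
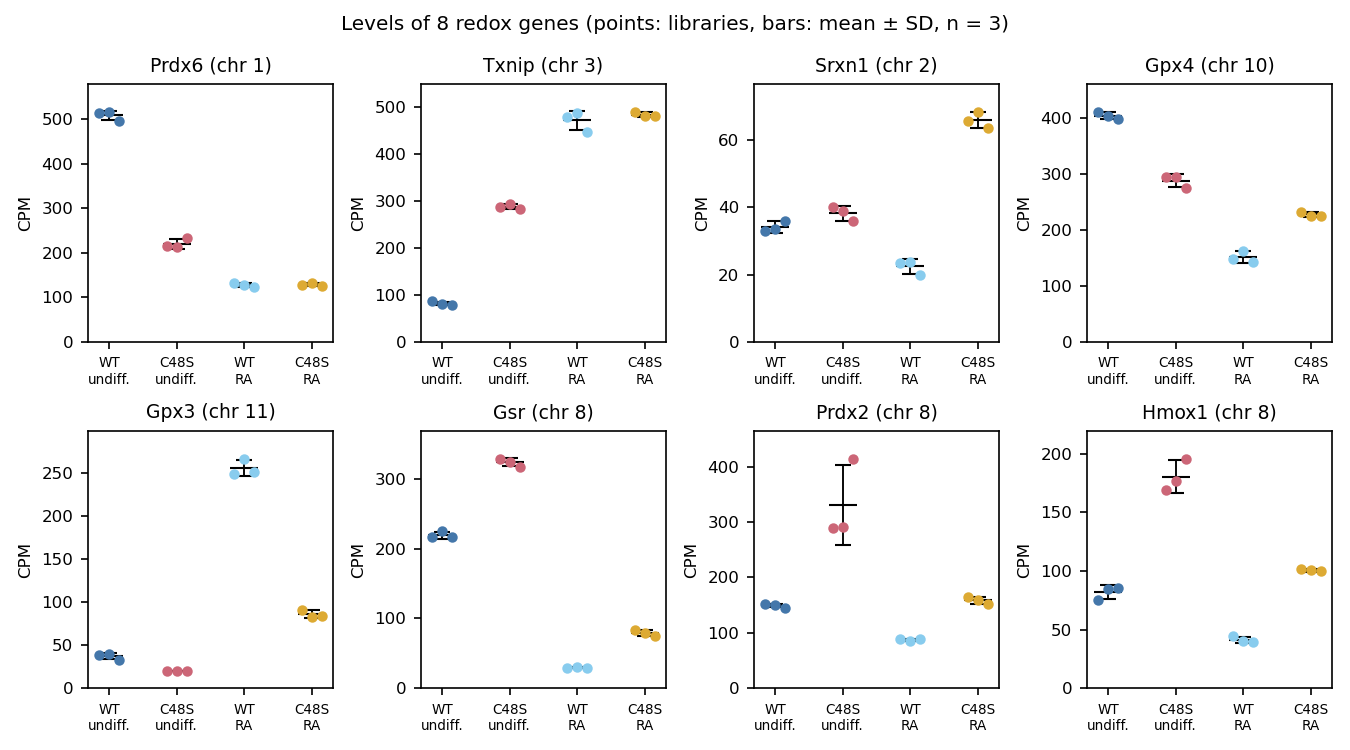
CPM of Prdx6, Txnip, Srxn1, Gpx4, Gpx3, Gsr, Prdx2 and Hmox1 in each group, with points for libraries and bars for the mean and SD of 3 libraries; each panel has its own axis from 0. The lines are apart for Prdx6 and Txnip before RA but not after it, when their libraries overlap, while for Srxn1 the lines are apart after RA.

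Glutaredoxins use glutathione to reduce disulfides or carry iron-sulfur clusters. Glrx, the cytosolic dithiol enzyme, had the largest fold difference of the 40 genes before RA and the lowest counts after it (ENSMUSG00000021591, chromosome 13, 75987987 to 75998273). It had 11.6, 13.4 and 14.1 CPM in WT, and 2.29, 2.45 and 1.34 CPM in C48S before RA, a difference of -2.67 ± 0.21 (adjusted p = 3.24e-13). After RA the libraries held 6, 5 and 9 counts in WT and 3, 3 and 7 in C48S, which overlap and are too few to separate the lines (-0.81 ± 0.51, adjusted p = 0.188). It fell 20.2-fold with RA in WT and 5.55-fold in C48S, and the difference between the changes of 1.86 ± 0.61 (adjusted p = 0.0142) rests on those few counts and was lost without C48S RA replicate 3 (1.38, adjusted p = 0.182).

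Glrx3, a multidomain glutaredoxin of iron-sulfur handling and the most abundant of the family, was at 269.9, 274 and 273 CPM in WT and 198, 201 and 190.4 CPM in C48S before RA. The values after RA were 234, 251 and 223 CPM in WT, and 192, 198 and 187 CPM in C48S. C48S lay below WT without overlap in both states, by -0.47 ± 0.049 before (adjusted p = 2.70e-10) and -0.30 ± 0.049 after RA (adjusted p = 2.88e-06). Its fall with RA in WT (-0.21 ± 0.048) turned to 0.13 with library totals, and in C48S the change was -0.035 ± 0.049 (0.20 with library totals). Glrx5, a mitochondrial iron-sulfur carrier, was likewise lower in C48S in both states (-0.53 ± 0.10 and -0.31 ± 0.10), and mitochondrial Glrx2 passed in no comparison. The 4 genes summed to 68.1 ± 0.706 CPM per kilobase in WT and 47.8 ± 0.594 in C48S before RA, and to 56.4 ± 2.47 and 46.1 ± 1.44 after it (SD, n = 3).

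Glutathione peroxidases showed an exchange of members with RA. Gpx3, the secreted enzyme of plasma, on chromosome 11 (ENSMUSG00000018339, chromosome 11, 54793279 to 54801203), was at 38.3, 40.2 and 33.4 CPM in WT and 20.2, 20.03 and 19.6 CPM in C48S before RA. After RA WT had 248, 267 and 251 CPM, while C48S had 91.2, 82.96 and 83.8 CPM. No groups overlapped: C48S lay below WT in both states, and both lines were higher after RA. Gpx3 rose 6.82-fold with RA in WT and 4.31-fold in C48S, a difference of -0.66 ± 0.098 (adjusted p = 1.03e-06). The line differences were -0.91 ± 0.079 before and -1.57 ± 0.057 after RA, and -0.38 and -1.09 against the median of chromosome 11 (adjusted p = 1.33e-04 and 6.49e-18). Extraembryonic endoderm markers, from a list of 16, summed to between 681 and 708 CPM in WT and between 522 and 558 CPM in C48S before RA, and to between 960 and 981 and between 780 and 784 CPM after it. Most of these sums came from Sparc, Lamb1, Lama1 and Col4a1, and the list did not differ in 1 direction: in C48S against WT after RA, 4 of the 13 tested were higher and 5 lower (median -0.061), with Gata4 (0.49 ± 0.13) and Col4a1 (0.73 ± 0.062) higher and Sparc (-0.68 ± 0.047) and Lamb1 (-0.57 ± 0.046) lower. Of all genes tested, 28.8% were higher and 25.7% lower in C48S after RA. With RA 11 of the 13 rose in each line, against 40.9% of all genes in WT and 39.0% in C48S. Afp and Ttr of that list had no count before RA, and the part of such cells in Gpx3 was not tested.

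Gpx4, the member that reduces lipid hydroperoxides in membranes and holds back ferroptosis, took the opposite course (ENSMUSG00000075706, chromosome 10, 79883000 to 79892273). It had 409.7, 403 and 397 CPM in WT and 295, 293 and 275 CPM in C48S before RA, and 148, 163 and 143 and 232, 225 and 225 CPM after it. C48S lay below WT before RA and above it after, without overlap (-0.49 ± 0.049 and 0.59 ± 0.051). It fell 2.67-fold in WT and 1.26-fold in C48S, and the changes differed by 1.08 ± 0.070 (adjusted p = 7.39e-15). Gpx1, the cytosolic member, fell in both lines (-1.55 ± 0.049 and -1.29 ± 0.048) and was -0.11 ± 0.046 in C48S against WT before and 0.14 ± 0.050 after RA (adjusted p = 0.0348 and 0.0142). The first call was lost under 12 of 22 alternatives, 7 of them with a library left out, and came to -0.040 with library totals. The second was lost under 9, among them RLE scaling, DESeq2, library totals and 5 with a library left out. Gpx8, a membrane protein of the endoplasmic reticulum, rose in both lines (1.80 ± 0.20 and 1.31 ± 0.17) from under 6 CPM. Gpx7, of the same compartment, was lower in C48S before RA (-0.59 ± 0.15) and rose with RA in C48S (0.46 ± 0.15), while in WT it was at -0.18 ± 0.14, which did not pass.

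Of the summed CPM per kilobase of the 5 genes, Gpx3 held 4.36 ± 0.317% in WT and 2.91 ± 0.0387% in C48S before RA (SD, n = 3). After RA it held 44.5 ± 0.336% in WT and 17.1 ± 0.591% in C48S. Gpx4 held 49.7 and 44.1% before RA, and 27.6% in WT against 47.6% in C48S after it, while Gpx1 held 43.5 and 50.1% before and 22.2 and 28.0% after. After RA Gpx3 was therefore the largest part of the family in WT and Gpx4 in C48S. The summed level was 471 ± 10.6 CPM per kilobase in WT and 378 ± 0.809 in C48S before RA, and 317 ± 10.5 and 277 ± 7.86 after it.

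**Figure D5:**
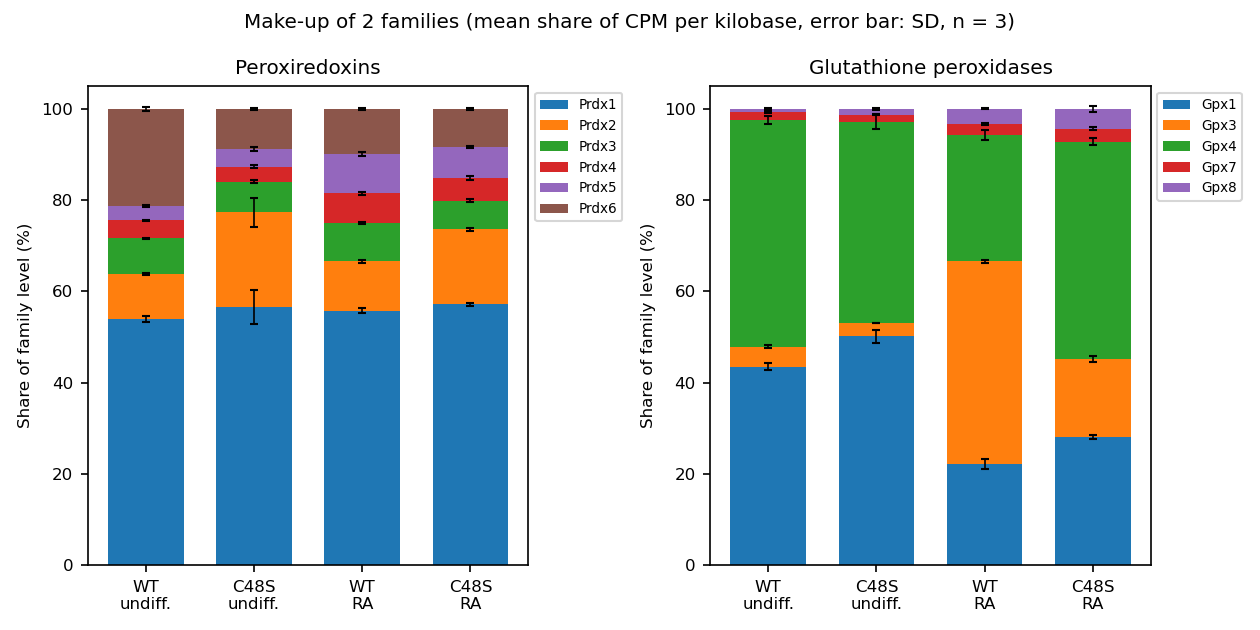
Make-up of the peroxiredoxins and the glutathione peroxidases in the 4 groups, as the mean share of each gene in the family's summed CPM per kilobase (n = 3 libraries, error bars SD). The Prdx6 band is widest in WT undifferentiated cells, and the Gpx3 band grows from 4.36 to 44.5% with RA in WT and from 2.91 to 17.1% in C48S.

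Among the genes that make and recycle glutathione, Gsr, the NADPH-dependent glutathione reductase, fell most with RA. It lies on chromosome 8 (ENSMUSG00000031584, chromosome 8, 34142551 to 34188191) and was at 216, 225 and 216 CPM in WT and 329, 324 and 317 CPM in C48S before RA. The levels after RA were 29.5, 30.02 and 29.2 CPM in WT, and 82.8, 79.6 and 74.3 CPM in C48S. C48S lay above WT in every library in both states, and both lines were far lower after RA. The fall was 7.40-fold in WT and 4.10-fold in C48S, and differed by 0.85 ± 0.077 (adjusted p = 2.70e-11). The line difference before RA was 0.56 ± 0.047, but 0.044 against the chromosome's median (adjusted p = 0.456). After RA it was 1.41 ± 0.060, and 0.84 against that median (adjusted p = 6.03e-14).

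Gclm, the modifier subunit of glutamate-cysteine ligase, which makes the limiting precursor, was lower in C48S before RA (-0.17 ± 0.067) and higher after it (0.34 ± 0.073), having fallen less in C48S (-0.63 ± 0.069) than in WT (-1.15 ± 0.071). The call before RA was lost with library totals (-0.10, adjusted p = 0.201), with no low-count filter, against a null fold of 1.5, and without WT undifferentiated replicate 3 or C48S undifferentiated replicate 1 (adjusted p = 0.120 and 0.192). Gclc, the catalytic subunit, was at 95.01 to 99.8 CPM in WT and 102 to 117 CPM in C48S before RA. It fell with RA in C48S (-0.39 ± 0.059) and was at -0.076 ± 0.059 in WT, where it did not pass and came to 0.27 with library totals. The 2 subunits thus had RA changes that differed between the lines in opposite directions (0.51 ± 0.099 for Gclm and -0.32 ± 0.083 for Gclc). Gss, which completes glutathione, was lower in C48S in both states (-0.66 ± 0.10 and -0.51 ± 0.12) and fell in both lines (-0.94 ± 0.10 and -0.79 ± 0.11). G6pdx, which feeds NADPH from the pentose phosphate pathway, fell in both lines (-0.79 ± 0.064 and -0.76 ± 0.064). Slc7a11, the cystine importer, had only 9 to 29 counts in any library and the lowest level per length of the 40 in 3 of the 4 groups. It was higher in C48S after RA (0.93 ± 0.33, adjusted p = 0.0185), from 18, 12 and 9 counts in WT and 29, 28 and 29 in C48S. That call was lost with DESeq2 (adjusted p = 0.0513) and without WT RA replicate 2 or 3 or C48S RA replicate 2 (adjusted p = 0.0868, 0.108 and 0.0558).

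Of the enzymes that remove superoxide or hydrogen peroxide, all 4 fell with RA in both lines, against 37.4% of all genes tested in WT and 34.6% in C48S. The share of all genes that fell in both lines was not counted, so this only describes the 4. Sod2, the mitochondrial manganese enzyme (ENSMUSG00000006818, chromosome 17, 13225733 to 13258950), was at 232, 235 and 219 CPM in WT and 302, 306 and 282 CPM in C48S before RA, and at 30.7, 33.5 and 29.6 and 44.8, 43.7 and 43.5 CPM after it. C48S lay above WT without overlap in both states (0.37 ± 0.050 and 0.49 ± 0.066). The fall was 7.30-fold in WT and 6.74-fold in C48S, and the difference between these falls did not pass (0.12 ± 0.083, adjusted p = 0.280). Sod3, the secreted enzyme, was at 26.3, 27.3 and 25.1 CPM in WT and 41.7, 34.9 and 47.7 CPM in C48S before RA, with C48S above, and at 2.07, 1.54 and 1.86 and 2.31, 0.935 and 1.66 CPM after it, with overlap. It had the largest fall of the 40 in C48S (-4.62 ± 0.17), with -3.85 ± 0.18 in WT.

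Sod1, the cytosolic copper-zinc enzyme, was lower in C48S in both states (-0.36 ± 0.051 and -0.29 ± 0.052) and fell less with RA than the other 2 dismutases (-0.80 ± 0.052 and -0.73 ± 0.052). It held 80.1% of the summed dismutase level per length in WT and 69.7% in C48S before RA, and 95.0 and 92.1% after it. Catalase, Cat, which splits hydrogen peroxide in peroxisomes, fell in both lines (-0.73 ± 0.063 and -0.74 ± 0.063) and did not pass between the lines in either state.

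Nqo1 and Hmox1, textbook NRF2 targets, both lie on chromosome 8 and were higher in C48S in both states. Hmox1, which breaks down heme (ENSMUSG00000005413, chromosome 8, 75820249 to 75827217), was at 75.1, 84.7 and 85.7 CPM in WT and 169, 176 and 196 CPM in C48S before RA, and at 44.5, 40.4 and 39.4 and 102, 100.5 and 99.6 CPM after it. Every C48S library was above every WT library of its state. The differences were 1.14 ± 0.061 and 1.28 ± 0.067, and against the chromosome's median 0.62 (adjusted p = 9.37e-11) and 0.71 (adjusted p = 5.42e-11).

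Nqo1, a quinone reductase (ENSMUSG00000003849, chromosome 8, 108114857 to 108129838), was at 46.6, 46.02 and 39.8 CPM in WT and 89.7, 78.2 and 78.3 CPM in C48S before RA, and at 20.2, 23.2 and 21.97 and 52.3, 50.8 and 53.3 CPM after it. The groups were again apart, by 0.89 ± 0.075 before and 1.25 ± 0.083 after RA, or 0.38 (adjusted p = 6.00e-05) and 0.68 (adjusted p = 2.12e-08) against the chromosome's median. Both genes fell with RA, Hmox1 by 1.98-fold in WT and 1.79-fold in C48S and Nqo1 by 2.02-fold and 1.58-fold. Hmox2, the constitutive heme oxygenase, rose in both lines (0.50 ± 0.093 and 0.25 ± 0.097) and was lower in C48S after RA (-0.46 ± 0.091). Its rise in C48S did not pass without C48S undifferentiated replicate 1 or 2 or C48S RA replicate 2 or 3 (adjusted p = 0.151, 0.180, 0.0620 and 0.0694).

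In the control of NRF2, the 3 genes all had a higher RA change in C48S than in WT by the test, against 22.2% of all genes tested, a count that only describes these 3. For Keap1 that call (0.32 ± 0.12, adjusted p = 0.0320) was lost under 14 of 21 alternatives, among them RLE scaling, DESeq2, library totals and 9 of the 12 fits with a library left out. Nfe2l2 was at 147, 158 and 154 CPM in WT and 129, 123 and 114 CPM in C48S before RA, and at 75.2, 79.8 and 84.5 and 84.8, 88.6 and 87.4 CPM after it. C48S was below WT before RA (-0.32 ± 0.055, adjusted p = 6.37e-06) and just above it, without overlap, after RA (0.12 ± 0.058, adjusted p = 0.0763). It fell in WT (-0.94 ± 0.057) more than in C48S (-0.49 ± 0.057), with a difference of 0.44 ± 0.080 (adjusted p = 2.82e-05).

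Keap1 was at 36.5, 36.9 and 37.2 CPM in WT and 37.9, 39 and 44.7 CPM in C48S before RA, and at 22.1, 21.4 and 24.2 and 31.3, 29.8 and 31.3 CPM after it. The lines were apart after RA (0.45 ± 0.087, adjusted p = 3.65e-05) and did not pass before (0.14 ± 0.081). Sqstm1, the p62 adaptor that binds KEAP1 and feeds it to autophagy, lies on chromosome 11 (ENSMUSG00000015837, chromosome 11, 50090193 to 50101654). It had 316, 308 and 291 CPM in WT and 161, 166 and 184 CPM in C48S before RA, and 263, 257 and 275 and 237, 247 and 226 CPM after it, with C48S below WT in each state. It rose with RA in C48S (0.47 ± 0.053) and fell in WT (-0.20 ± 0.051, but 0.14 with library totals). The line differences of -0.84 ± 0.053 and -0.16 ± 0.052 were -0.31 and 0.31 against the median of chromosome 11, so that after RA the sign turned (adjusted p = 4.51e-06).

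The methionine sulfoxide reductases repair oxidized methionine, Msra the S and Msrb1 the R form. Msra was at 8.81, 7.73 and 7.27 CPM in WT and 3.99, 4.79 and 4.03 CPM in C48S before RA, and at 3.21, 2.14 and 2.64 and 3.23, 2.62 and 3.65 CPM after it. The lines were apart before RA (-0.90 ± 0.18, adjusted p = 8.75e-05) and overlapped after it. Msra fell in WT (-1.58 ± 0.20) and was at -0.42 ± 0.21 in C48S, which did not pass (adjusted p = 0.0707). Msrb1, a selenoprotein, was at 21.4, 21.1 and 22.3 CPM in WT and 22.7, 22.8 and 27.8 CPM in C48S before RA, and at 24.2, 21.5 and 23.1 and 16.4, 18.4 and 19.4 CPM after it. C48S lay below WT after RA alone (-0.34 ± 0.10, adjusted p = 0.00445), and Msrb1 fell with RA in C48S (-0.43 ± 0.10) and not by the test in WT (0.087 ± 0.10).

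Grouped by the selenocysteine codons shown above, 3 of the 7 selenoprotein genes rose with RA in WT and 3 fell, and of the other 33 genes 4 rose and 24 fell, against 40.9% rising and 37.4% falling of all genes tested. In C48S 3 rose and 4 fell of the 7, and 6 rose and 20 fell of the 33, against 39.0% and 34.6%. The selenoproteins that rose in both lines were Gpx3, Txnrd1 and Txnrd2, and those that fell in both were Gpx1, Gpx4 and Txnrd3. These counts are a description, and the difference between the selenoprotein genes and the others was not tested.

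Grouped by the promoter motif, the 7 genes with an ARE core did not move as one. In C48S against WT before RA, Prdx1 and Txnrd1 were higher, Gclm, Nfe2l2 and Sod1 lower, and Srxn1 and G6pdx did not pass (27.5% of all genes higher and 28.1% lower). After RA Prdx1, Txnrd1, Gclm and Srxn1 were higher, Sod1 lower, and Nfe2l2 and G6pdx did not pass (28.8% and 25.7%), a call that for Txnrd1 was lost under 17 of 22 alternatives. With RA in WT 6 of them fell and Txnrd1 rose (37.4% and 40.9%). In C48S Prdx1, Gclm, Nfe2l2, Sod1 and G6pdx fell with RA, and Srxn1 and Txnrd1 rose (34.6% and 39.0%).

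Other genes of redox metabolism, from 88 listed in 7 groups of which 84 were tested, went both ways as well. Of these 84, 30 were higher and 28 lower in C48S before RA (median 0.13), and 36 higher and 21 lower after it (median 0.16). These are 35.7% and 33.3% of the 84 before RA and 42.9% and 25% after it, against 27.5% and 28.1%, and 28.8% and 25.7%, of all genes tested. With RA 43 fell and 28 rose in WT (median -0.25), and 36 fell and 28 rose in C48S (median -0.070). The shares that fell were 51.2% and 42.9%, against 37.4% and 34.6% of all genes, and 33.3% rose in each line, against 40.9% and 39.0%. NADPH supply fell for 7 of 9 in WT and 6 of 9 in C48S, and the 4 tested genes of the 6 listed for oxidant production rose in both lines. The other two, Xdh and Nox1, were below the filter on low counts: Xdh was at 0.672 to 0.759 CPM in WT and 0.207 to 0.746 CPM in C48S before RA, and at 0 to 0.257 and 0 to 0.0792 CPM after it. The RA change of 28 of the 84 was higher in C48S and that of 19 lower (33.3% and 22.6%, against 22.2% and 17.2% of all genes, median 0.12).

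Of the 6 such genes with the smallest adjusted p in each comparison, Tigar, a phosphatase that directs glucose to NADPH supply, fell from 125 to 135 to 18.03 to 18.9 CPM in WT (-2.82 ± 0.066) and from 224 to 236 to 45.2 to 49.8 CPM in C48S (-2.29 ± 0.056). It lies on chromosome 6 and was higher in C48S in both states (0.81 ± 0.052 and 1.35 ± 0.071). Gsto1, a glutathione transferase of the omega class, was at 46.9, 47.8 and 45.9 CPM in WT and 151, 146 and 155 CPM in C48S after RA. It differed by 1.68 ± 0.058, and the RA changes by 1.49 ± 0.079 (adjusted p = 2.63e-17). Ftl1, the ferritin light chain and an NRF2 target, was higher in C48S before RA (0.78 ± 0.043, adjusted p = 2.23e-17) and after it (0.41 ± 0.043), and fell with RA in C48S (-0.83 ± 0.043) and in WT (-0.47 ± 0.043). Selenop, the secreted carrier of selenium, and Slc40a1, the iron exporter ferroportin, rose with RA in C48S (3.21 ± 0.11 and 4.21 ± 0.15) and in WT (3.71 ± 0.17 and 4.33 ± 0.20). The differences between the lines in these rises did not pass (-0.50 ± 0.25 and -0.12 ± 0.32). Slc3a2, the partner subunit of Slc7a11, was higher in C48S before and after RA (0.65 ± 0.047 and 0.89 ± 0.049). Nfe2l1, a relative of NRF2, and Mafg, its small Maf partner, fell with RA in WT (-1.09 ± 0.046 and -1.66 ± 0.066) and in C48S (-0.79 ± 0.047 and -0.95 ± 0.065), and Nfe2l1 and Nxn, nucleoredoxin, were lower in C48S before RA (-0.75 ± 0.046 and -0.92 ± 0.055). These 3 genes lie on chromosome 11.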

How the data were processed

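RNA was purified on columns and cleared of ribosomal RNA before library preparation, per the labels' protocols. STAR 2.7.9a, DESeq2 and the build mm39 are named in the submitters' processing notes. The deposited values are raw counts per gene, 1 file per library, made per the file headers with featureCounts 1.6.3 on read pairs, with strand option 2, largest overlap and Ensembl GRCm39 gene models of release 104. Reads were thus assigned by strand, and reads of near-identical copies could be lost.

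Libraries were grouped by title. Symbols came from GENCODE M21 and RefSeq by identifier (94.0% of 55416 identifiers). The test was the robust quasi-likelihood test of edgeR 4.0.16 (R 4.3.3), with TMM scaling, a minimum count of 10 in filterByExpr and 1 mean per group over 12 libraries, leaving 8 residual degrees of freedom. Calls are at a Benjamini-Hochberg adjusted p under 0.05 over 17940 genes, and ± is the standard error. The biological coefficient of variation was 0.0549. Differences against a chromosome's median used an offset for C48S libraries. The fit was tested on simulated data.

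Alternatives were RLE scaling, library totals, TMM without chromosomes 6, 8, 11 and Y, DESeq2 1.42.0, other filters, fits of only the groups compared, a null fold of 1.5, the replicate block and each library left out. The members, lists, marker lists and tests were chosen with earlier results of these data known. All 40 members could be named, with every library's value for those with the smallest adjusted p of their role or on chromosomes 6, 8 and 11, and of the other redox genes 6 per comparison.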

Additional observations from a re-analysis of the deposited data

Results flagged for a closer look

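The RA change differed between the lines, by the interaction term of the edgeR fit over all 12 libraries, for 21 of the 40 redox genes, each of which is given here as the C48S change minus the WT change on the log2 scale. Upward differences were 1.86 for Glrx, 1.39 for Srxn1, 1.22 for Prdx6, 1.17 for Msra, 1.08 for Gpx4, 0.85 for Gsr, 0.68 for Sqstm1, 0.64 for Gpx7, 0.51 for Gclm, 0.44 for Nfe2l2, 0.36 for Nqo1, 0.32 for Keap1, 0.26 for Gpx1, 0.17 for Glrx3 and 0.16 for Prdx1. Downward differences were -1.77 for Txnip, -0.67 for Txn2, -0.66 for Gpx3, -0.52 for Msrb1, -0.45 for Prdx5 and -0.32 for Gclc. Glrx rests on at most 9 counts per library after RA. Prdx1, Glrx3 and Keap1 passed narrowly (adjusted p = 0.0421, 0.0450 and 0.0320) and lost the call under 16, 16 and 14 of 21 alternatives. Nqo1 lost it under 4, among them without WT undifferentiated replicate 2 or WT RA replicate 1 (adjusted p = 0.0514 and 0.0530), Gpx7 without WT undifferentiated replicate 1 (0.0514) and Glrx without C48S RA replicate 3 (0.182). Groups of 3 libraries are too small for the test of a single library far from the others, so none was made.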

How the results depend on the processing

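Counts of redox genes that passed stayed within 1.5 times the reported ones under RLE scaling, DESeq2, both other filters, the compared groups alone, the chromosome offset and TMM outside chromosomes 6, 8, 11 and Y. Against a fold of 1.5 they were 4 higher and 4 lower between the lines before RA, 4 and 1 after it, 4 higher with RA in WT, 5 higher with RA in C48S, and 4 and 1 for the difference between the RA changes. With library totals 12 were higher with RA in WT, against 9442 of all 17940 genes tested. The redox medians were then -0.029 for the lines before RA, -0.38 for RA in WT, -0.22 for RA in C48S and 0.040 for the difference between the RA changes, since that scaling moved all genes. The median for RA in WT was -0.70 under RLE scaling, DESeq2 and TMM outside those chromosomes. Signs turned with library totals for Txn2 (0.19), Glrx3 (0.13), Gclc (0.27) and Sqstm1 (0.14) with RA in WT and for Glrx3 (0.20) with RA in C48S, and with the chromosome offset for Txnrd3 (-0.58) and Sqstm1 (0.31) between the lines after RA. Signs that turned where neither value passed are not given. Not scaled for length, the share of Gpx3 was 4.97, 3.37, 48.3 and 19.2% in WT and C48S before RA and in WT and C48S after it, and that of Prdx1 50.8% in WT before RA and 57.6 and 58.2% in WT and C48S after it.

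Leaving out each library in turn gave 10 to 14 higher and 12 to 18 lower between the lines before RA (medians -0.13 to -0.077), and 10 to 14 higher and 8 to 11 lower after it (medians -0.0057 to 0.034). It gave 7 higher and 26 to 27 lower with RA in WT (medians -0.75 to -0.68), 8 to 10 higher and 24 to 25 lower with RA in C48S (medians -0.51 to -0.43), and 11 to 19 higher and 6 to 8 lower for the difference between the RA changes (medians 0.085 to 0.16). C48S undifferentiated replicate 3 accounts for the upper ends of 18 and 19. The deviations of same-numbered libraries of different groups had r from -0.110 to 0.142, not over 0.1 in all pairs, so the numbers were not taken to pair them. For RA against undifferentiated in WT the same-number values were 0.031, 0.142 and 0.095. Each of these was above the values of that RA library with the other numbers. With the replicate block all 40 genes kept their side of the threshold in each comparison, with a median of -0.72 for RA in WT. Glrx after RA and Slc7a11, with at most 29 counts per library, are the genes where depth limits the comparison most.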
